A study of Mus musculus with 12 samples.

Results

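Rpl13a, Tbp, Nono and Hprt are 4 genes that are widely used as references for measuring RNA, and they were followed here in the mouse left ventricle after infarction. They were chosen by name, as 4 of the 15 probes on the array that the files pair with a transcript, out of 52300 probes tested. Each probe was printed as 20 spots on every array. The ventricles came from 12 male C57BL/6J mice, 4 weeks after myocardial infarction (MI) or sham surgery. The mice were wild type or carried a systemic knockout of Miat, a long noncoding RNA. Each of the 4 combinations of genotype and surgery was represented by 3 independent ventricles, and the RNA of each was labelled with Cy3 and read on 1 array. Wild-type mice were 13 to 14 weeks old at harvest and knockout mice 15 to 16 weeks, so age did not overlap between genotypes. A left ventricle is a mixture of cell types, and in such bulk RNA fewer cells of a type and less RNA per cell cannot be told apart. Miat and the markers of cardiac cells were not analysed here, because the files do not pair them with probes.

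A reference gene is one whose RNA is taken to stay level, so that a target gene can be expressed as a ratio to it; any movement of the reference then appears, with its sign turned, in the target. The members come from different cellular systems. Rpl13a encodes a protein of the large ribosomal subunit. Tbp encodes the TATA-binding protein, a general transcription factor. Nono encodes an RNA- and DNA-binding protein of paraspeckles, nuclear bodies built on a long noncoding RNA. Hprt encodes an enzyme of purine salvage.

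RefSeq (GRCm38.p6) places the start of Rpl13a on the minus strand of chromosome 7, of Tbp on the plus strand of chromosome 17, and of Nono and Hprt on the plus strand of the X chromosome. The 300 bases from 250 before to 50 after the start, 5′ to 3′, are shown for Rpl13a (chr7:45128696-45128995) and Nono (chrX:101429401-101429700), the members with the widest and the narrowest spread over the arrays. Capitals mark matches, on either strand, to CCAAT (the CCAAT box), GGGCGG (the GC box), CACGTG (an E-box) and AAGATGGC (a core of the YY1 site).
Rpl13a: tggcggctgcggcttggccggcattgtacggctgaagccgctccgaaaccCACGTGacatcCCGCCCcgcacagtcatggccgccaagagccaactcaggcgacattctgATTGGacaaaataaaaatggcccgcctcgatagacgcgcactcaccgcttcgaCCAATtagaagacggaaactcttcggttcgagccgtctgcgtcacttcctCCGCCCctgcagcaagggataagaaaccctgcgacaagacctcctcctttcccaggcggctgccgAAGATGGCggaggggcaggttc
Nono: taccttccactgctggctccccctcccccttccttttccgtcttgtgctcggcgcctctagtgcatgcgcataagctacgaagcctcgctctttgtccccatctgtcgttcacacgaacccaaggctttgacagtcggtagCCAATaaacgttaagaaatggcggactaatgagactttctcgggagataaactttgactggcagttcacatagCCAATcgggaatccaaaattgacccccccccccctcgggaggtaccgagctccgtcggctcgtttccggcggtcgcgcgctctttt
The other 2 windows are chr17:15499638-15499937 for Tbp and chrX:52987828-52988127 for Hprt. CCAAT was found in Rpl13a and Nono and in 37.4% of 32851 promoter windows of this length. GGGCGG was found in Rpl13a, Tbp and Hprt and in 35.7% of all windows. TATAAA, searched on both strands, was in none of the 4 windows and in 13.6% of all. CACGTG and AAGATGGC were in Rpl13a alone of the 4, and in 7.15% and 2.75% of all windows, while CGGAAG, an ETS core, was in Tbp alone of the 4 and in 16.9% of all. The GC content was 60.3% for Rpl13a, 53.3% for Tbp, 55.7% for Nono and 61.0% for Hprt, beside a median of 52.7%. The matches overlap no other match in these windows and are descriptions of letters, not of bound sites.

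Values are the log2 of the background-subtracted spot signal minus the array's 75th percentile, so 0 is the level of the array's 75th percentile and a step of 1 is a doubling. The 75th percentile itself lay at 464 to 469 signal units on the wild-type sham arrays, 368 to 456 in wild-type MI, 326 to 365 in knockout sham and 383 to 462 in knockout MI. All 240 spots of each member were well above background. Over the 12 arrays the signal ran from 179 to 342 units for Tbp, 1051 to 1706 for Nono, 1675 to 3758 for Rpl13a and 5655 to 12035 for Hprt. The part of brightness in a gene's spread was not tested. The 20 spots of an array had a median SD of 0.03 on the log2 scale for Rpl13a and Nono, 0.04 for Hprt and 0.05 for Tbp. The standard error of an array's mean was at most 0.01 for each member. The SD between arrays was 11.9 times the median SD among spots for Rpl13a, 7.17 times for Hprt, 3.58 times for Nono and 2.47 times for Tbp, so the number of arrays and not the spots limited the precision.

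Per the scanner headers the arrays had 2 scan dates, and arrays that share a date are here called a slide. Slide 1 and slide 2 thus stand for scan dates, since the slides themselves were not identified. Every infarcted ventricle, of either genotype, was read on slide 1, together with replicates 2 and 3 of the knockout sham group. Slide 2 carried the wild-type sham group and the remaining knockout sham array, replicate 1. MI and slide therefore cannot be told apart in the wild type. In the knockout, knockout sham replicate 1 differed from the other 2 sham arrays in slide and in age, at 16 against 15 weeks.

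Nono and Tbp were the steadiest members and Rpl13a the least steady. Over the 12 arrays the SD was 0.11 for Nono, 0.12 for Tbp, 0.26 for Hprt and 0.33 for Rpl13a on the log2 scale, beside a median of 0.27 for all probes tested. Of all probes, 96.1% had a larger SD than Nono, 92.9% a larger SD than Tbp, 52.5% than Hprt and 35.9% than Rpl13a. The range between the lowest and the highest array was 0.42 for Nono, 0.43 for Tbp, 0.90 for Hprt and 0.86 for Rpl13a. Nono and Tbp differed too little in SD to be ranked, since Tbp had the smaller SD after median centring (0.11 against 0.14) and after normexp background correction (0.09 against 0.10). Pooled within groups, the SD was 0.08 for Tbp, 0.09 for Nono, 0.23 for Hprt and 0.26 for Rpl13a.

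These spreads are relative to the rest of each array. Without any scaling between arrays the SD of Tbp was 0.29, of Nono 0.21, of Hprt 0.29 and of Rpl13a 0.30, beside a median of 0.32 over all probes. Nono still had the smallest SD of the 4, while Tbp, Hprt and Rpl13a then lay close together. Leaving out the scaling moved the median difference over all probes from -0.04 to -0.21 for MI in the wild type, from 0.002 to 0.29 for MI in the knockout and from 0.02 to -0.40 for the genotypes after sham.

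**Figure D1:**
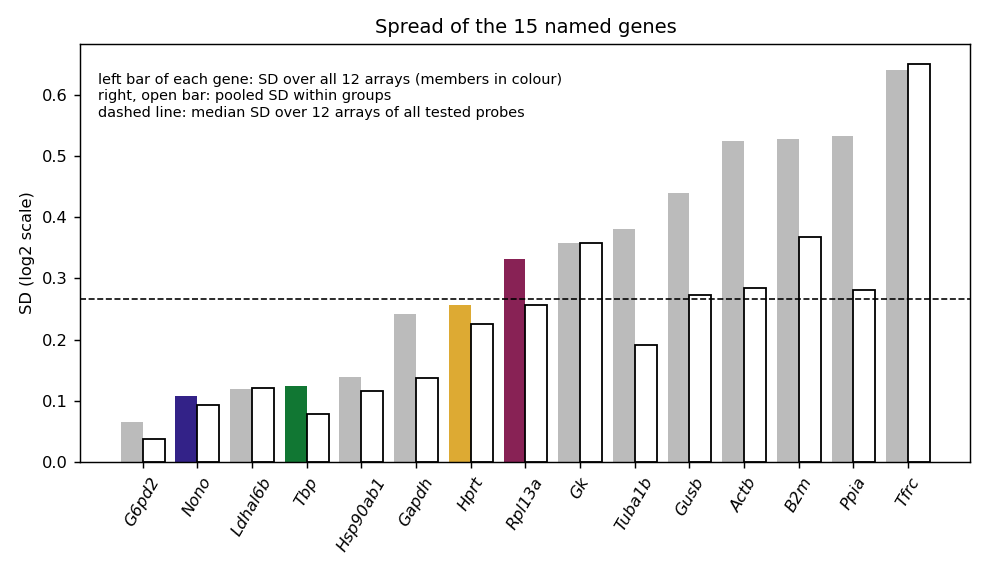
SD on the log2 scale (vertical axis) of each of the 15 named genes over all 12 arrays (filled bars, with the 4 members in colour) and pooled within the 4 groups (open bars); the dashed line is the median SD over 12 arrays of all tested probes, 0.27. Nono and Tbp lie below the line with 0.11 and 0.12, Hprt sits just under it with 0.26 and Rpl13a above it with 0.33.

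Of the other 11 named genes, 3 had an SD near those of Nono and Tbp: G6pd2 with 0.07, Ldhal6b with 0.12 and Hsp90ab1, a heat shock protein, with 0.14. G6pd2 is a retrogene copy of the glucose-6-phosphate dehydrogenase gene known from the testis, and Ldhal6b is a lactate dehydrogenase-like gene also known from the testis; their signals ran from 155 to 239 and from 108 to 201 units. The widest were Tfrc, the transferrin receptor, with 0.64, Ppia, the prolyl isomerase cyclophilin A, with 0.53, and B2m, beta-2 microglobulin, also with 0.53. All 4 members were steadier than these 3 genes, which are named because they were the widest of the 11. Gapdh, with 0.24, was steadier than Hprt and Rpl13a. The rest of the named genes were wider than every member, as a description of 12 arrays.

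Rpl13a was the member that differed most between groups. In wild-type sham its level was 2.23, 2.22 and 2.27 in replicates 1 to 3, and in wild-type MI 2.63, 3.05 and 2.94. Knockout sham gave 2.92, 2.36 and 2.22, and knockout MI gave 2.19, 2.19 and 2.67. Every wild-type MI array lay above every wild-type sham array, a comparison in which the groups did not overlap for 51.4% of all probes, whereas in the knockout the groups overlapped and each held 1 high array, sham replicate 1 and MI replicate 3. The means were 2.24 ± 0.03, 2.87 ± 0.22, 2.50 ± 0.37 and 2.35 ± 0.28 (SD, n = 3 each) in the same order of groups.

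Rpl13a rose after MI in the wild type by 0.63 (SE 0.20, 95% interval 0.20 to 1.07, adjusted p = 0.037 in limma with Benjamini-Hochberg adjustment over all probes), or 1.55-fold. It was the 1 member of 4 called in that comparison, in which 26.6% of all tested probes were called and 12.8% were called higher. The number of probes called there, 13933, dropped when a wild-type sham array was left out, to 4688 for replicate 1, 4025 for replicate 2 and 8464 for replicate 3, and dropped to 6727 when wild-type MI replicate 2 was left out. Its difference was not unusual for this array, since 21.0% of probes differed by more in either direction. The call was lost without wild-type sham replicate 1, 2 or 3, wild-type MI replicate 2 or 3, or knockout sham replicate 2, with differences of 0.55 to 0.76 over all 12 omissions and adjusted p up to 0.12. It was also lost after quantile normalization (0.41, adjusted p = 0.14 in limma), in the authors' values (0.40, adjusted p = 0.15), without scaling between arrays (0.46, adjusted p = 0.063), with age as a covariate (0.66, adjusted p = 0.055) and with the replicate block (0.63, adjusted p = 0.063). With slide as a fixed block, which rests on the 3 knockout sham arrays, the difference was 1.26.

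In the knockout Rpl13a differed by -0.15 after MI (95% interval -0.58 to 0.28, adjusted p = 0.85 in limma). Within slide 1, without knockout sham replicate 1, the difference was 0.06. The MI effect was lower in the knockout than in the wild type by 0.78 (95% interval of the difference -1.39 to -0.17), with an unadjusted p = 0.017 and an adjusted p = 0.11 in limma. After sham, the genotypes differed by 0.26 (95% interval -0.17 to 0.69, adjusted p = 0.53 in limma). After MI, Rpl13a was lower in the knockout by 0.52 (95% interval of the difference -0.95 to -0.09, adjusted p = 0.071 in limma), a call that did not pass the threshold. It passed without knockout sham replicate 1 (adjusted p = 0.033), which for this comparison is the same fit as slide as a fixed block, and without knockout MI replicate 3 (adjusted p = 0.048).

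The largest difference of Tbp between groups was 0.26, and its MI differences had opposite signs in the genotypes. For MI, 71.0% of probes differed by more than Tbp in either direction in the wild type and 35.5% in the knockout. Between the genotypes, 79.9% differed by more than Tbp after MI and 35.1% after sham. The level of Tbp was -0.52, -0.48 and -0.53 in wild-type sham and -0.65, -0.75 and -0.67 in wild-type MI. In knockout sham it was -0.86, -0.72 and -0.72, and in knockout MI -0.61, -0.43 and -0.66. All wild-type MI arrays lay below all wild-type sham arrays, while all knockout MI arrays lay above all knockout sham arrays. In the knockout, MI and sham did not overlap for 16.7% of all probes. The means were -0.51 ± 0.03, -0.69 ± 0.06, -0.77 ± 0.08 and -0.57 ± 0.12 (SD, n = 3 each). The groups of sham arrays also did not overlap, with the knockout lower; 31.8% of all probes did not overlap there in either direction.

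None of these differences of Tbp passed the test. MI against sham gave -0.18 in the wild type (95% interval -0.38 to 0.03, adjusted p = 0.16 in limma) and 0.20 in the knockout (95% interval -0.002 to 0.41, adjusted p = 0.54). In the knockout 0% of probes were called, with 4895 at an unadjusted p under 0.05. Between the genotypes after MI, Tbp differed by 0.12 (95% interval -0.08 to 0.33, adjusted p = 0.32 in limma). After sham the genotypes differed by -0.26 (95% interval -0.46 to -0.05, adjusted p = 0.20 in limma), a comparison in which 0.0402% of probes were called. That is 21 probes, with 1045 when wild-type MI replicate 2 was left out, 117 for knockout sham replicate 1, and 1 to 22 for each other array. The wild-type sham arrays enter both this difference and that for MI in the wild type. The MI effects differed between genotypes by 0.38 (95% interval 0.09 to 0.67, unadjusted p = 0.015, adjusted p = 0.11 in limma), where 3.74% of probes were called. That share, 1956 probes, fell to 0 to 391 without wild-type sham replicate 1, 2 or 3, knockout sham replicate 2 or knockout MI replicate 1 or 2, to 1245 without wild-type MI replicate 2, and was 3146 without knockout sham replicate 3. The array's 75th percentile was lowest in the knockout sham group, as given above; its part in the level of Tbp was not tested. Ratios between members, given below, do not contain the percentile.

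Nono gave narrow sham groups and wider MI groups. Its level was 1.63, 1.64 and 1.64 in wild-type sham, 1.60, 1.90 and 1.77 in wild-type MI, 1.69, 1.68 and 1.66 in knockout sham, and 1.48, 1.69 and 1.52 in knockout MI. The sham arrays of each genotype lay within 0.04 of each other, and the MI arrays spread over 0.30 in the wild type and 0.21 in the knockout. MI and sham overlapped in both genotypes, and in sham all 3 knockout arrays lay above all wild-type arrays by a small margin. In that comparison 31.8% of all probes did not overlap in either direction. The means were 1.64 ± 0.01, 1.75 ± 0.15, 1.68 ± 0.02 and 1.56 ± 0.11 (SD, n = 3 each).

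No difference of Nono passed the test. MI against sham gave 0.12 in the wild type (95% interval -0.10 to 0.34, adjusted p = 0.37 in limma) and -0.11 in the knockout (95% interval -0.33 to 0.10, adjusted p = 0.74). The direction in the wild type turned to -0.03 both after quantile normalization and in the authors' table, and to -0.05 without scaling. The genotypes differed by -0.19 after MI (95% interval -0.41 to 0.03) and by 0.04 after sham (95% interval -0.18 to 0.26). The MI effects of Nono differed between genotypes by -0.23 (95% interval -0.54 to 0.08, adjusted p = 0.31 in limma).

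Hprt varied within every group. Its level was 4.00, 4.19 and 4.43 in wild-type sham, 4.29, 4.72 and 4.55 in wild-type MI, 4.12, 4.50 and 4.52 in knockout sham, and 3.82, 4.27 and 4.20 in knockout MI. The group SDs of 0.21 to 0.24 were about as large as the differences between the group means of 4.21, 4.52, 4.38 and 4.10, and MI overlapped sham in both genotypes. After MI, all knockout arrays lay below all wild-type arrays, and 46% of all probes did not overlap there in either direction.

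MI against sham gave 0.31 for Hprt in the wild type (95% interval -0.07 to 0.70, adjusted p = 0.19 in limma), or 1.24-fold, and -0.28 in the knockout (95% interval -0.67 to 0.10, adjusted p = 0.62). After MI the knockout was lower by 0.42 (95% interval of the difference -0.81 to -0.04, adjusted p = 0.093 in limma). No member was called in that comparison, in which 24.1% of probes were called, and 2 of the 4, Rpl13a and Hprt, had an unadjusted p under 0.05. The number of probes called there, 12618, dropped when a knockout MI array was left out, to 3797 for replicate 1, 947 for replicate 2 and 8009 for replicate 3. It was 4039 when wild-type MI replicate 2 was left out and 339 in the fit of those groups alone. Hprt passed the threshold there with the replicate block (adjusted p = 0.035). After sham the genotypes differed by 0.17 for Hprt (95% interval -0.21 to 0.56, adjusted p = 0.66 in limma). The MI effects of Hprt differed between genotypes by -0.60 (95% interval -1.15 to -0.05, unadjusted p = 0.035, adjusted p = 0.16 in limma). After MI the direction between genotypes turned to 0.53 with age as a covariate, and age did not overlap between the genotypes.

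**Figure D2:**
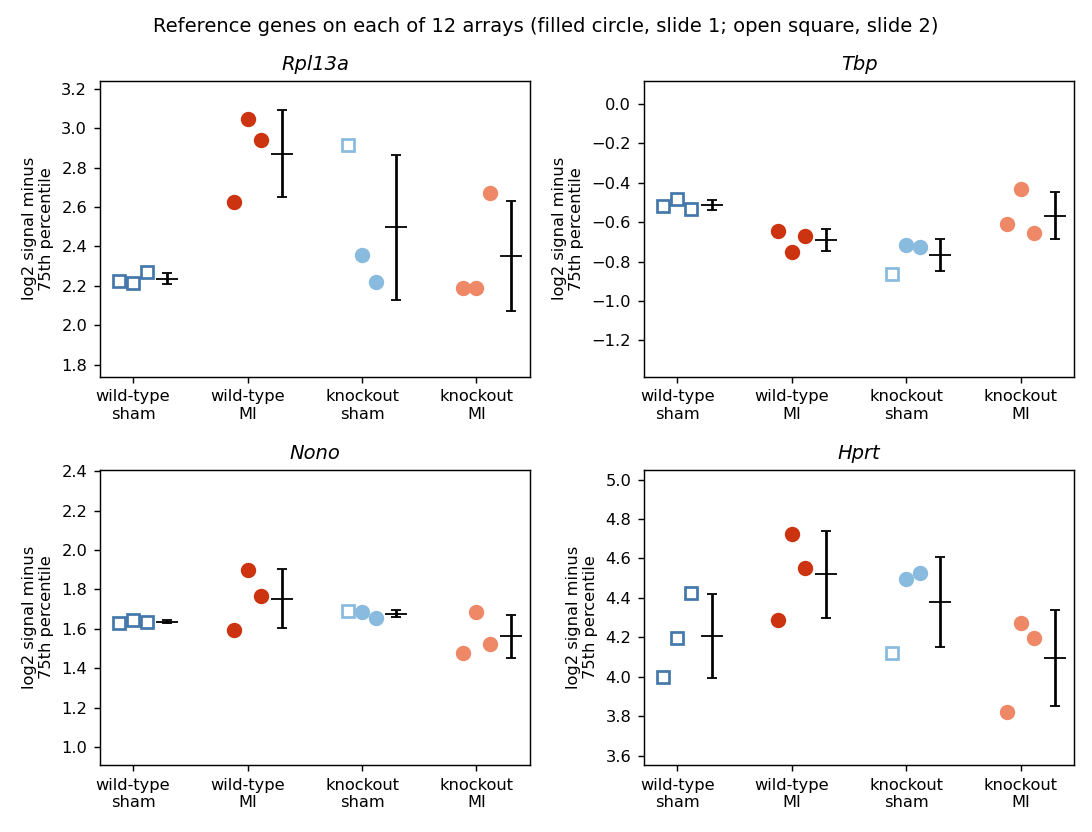
Level of each of the 4 members on every array, as log2 signal minus the array's 75th percentile (vertical axes of equal length, with different starts), by group (horizontal axis); filled circles are arrays of slide 1, open squares arrays of slide 2, and the bars give the mean and SD of 3 arrays. Rpl13a in wild-type MI (2.63 to 3.05) lies above wild-type sham (2.22 to 2.27), Tbp is lower after MI in the wild type and higher in the knockout, and Nono stays between 1.48 and 1.90 on all arrays.

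Across the 4 members, 1 was called for MI in the wild type and 0 in each of the other comparisons, in limma; at an unadjusted p under 0.05 the counts were 1 for MI in the wild type, 0 in the knockout, 3 for the contrast of both MI effects, 2 for the genotypes after MI and 1 after sham. Of all probes, 43%, 9.36%, 26.4%, 42.5% and 17.2% passed this unadjusted threshold in the same order. In the test of any difference among the 4 groups, 0 members were called, 1 (Rpl13a) had an unadjusted p under 0.05, and 27.2% of probes were called, with 45.5% at an unadjusted p under 0.05; without knockout sham replicate 1, Rpl13a was called there (adjusted p = 0.037). The count of probes called there, 14233, was 6806 to 15983 when each array was left out in turn, and lowest for wild-type sham replicate 2. The members' median absolute difference for MI in the wild type was 0.25, beside 0.32 over all probes. For MI in the knockout it was 0.17, beside 0.14. Among the other 11 named genes, 5 were called higher and 1 lower for MI in the wild type and 0 in the knockout.

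Missing a threshold does not show that a gene is level, so each interval was also set against a margin of 0.5 on the log2 scale in either direction. For Nono and Tbp the 95% intervals of all 4 comparisons between groups lay inside the margin, with largest differences of 0.19 and 0.26. For Hprt and Rpl13a none of the 4 intervals did, with largest differences of 0.42 and 0.63. The same held after median centring and normexp. Without knockout sham replicate 1, Rpl13a lay inside in 2 of 4. Under quantile normalization, and also in the authors' table, Hprt too lay inside in 4 of 4. With slide as a fixed block Nono lay inside in 3 and Tbp in 2 of 4, with slide as a random block Tbp lay inside in 3, and in fits of the groups compared alone Nono lay inside in 3. With age as a covariate Nono and Tbp kept 2 of 4 comparisons each inside, and without scaling Nono kept 2 and Tbp 1. G6pd2, Ldhal6b and Hsp90ab1 were the other named genes inside in 4 of 4. The difference of the MI effects between genotypes is not among these 4 comparisons. For it, the intervals of 0 of the 4 members lay inside the margin (Nono -0.54 to 0.08, Tbp 0.09 to 0.67), beside 2 of the other 11 named genes.

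**Figure D3:**
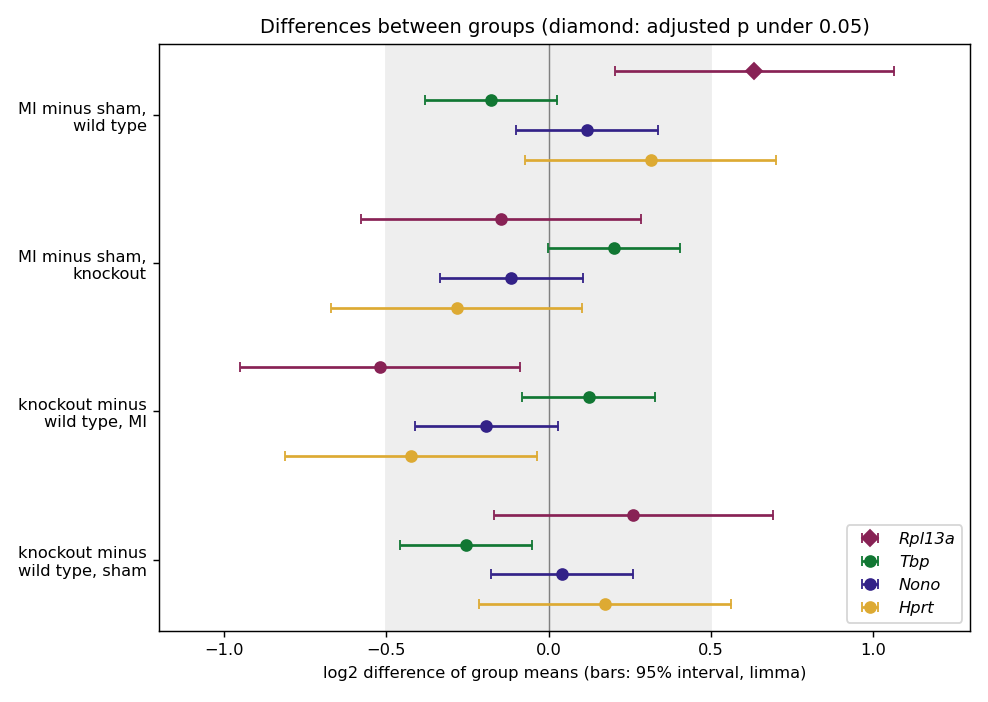
Difference between group means on the log2 scale (horizontal axis) for the 4 members in 4 comparisons, with 95% intervals from limma; the grey band is the margin of 0.5 on either side and the diamond marks an adjusted p under 0.05. All intervals of Nono and Tbp lie inside the band, every interval of Rpl13a and Hprt crosses its edge, and Rpl13a after MI in the wild type, at 0.63, is the 1 difference called.

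Ratios of members on the same array do not depend on how the array is scaled by a constant. Over the 12 arrays the SD of the log2 ratio was 0.19 for Nono over Hprt and for Tbp over Nono, 0.28 for Rpl13a over Nono, 0.32 for Tbp over Hprt and for Rpl13a over Hprt, and 0.43 for Rpl13a over Tbp. Nono thus stood in the 3 tightest pairs. Against all 14 other named genes, the mean SD of the ratio was smallest for Nono (0.33), with Hprt at 0.37 (rank 3 of 15), Tbp at 0.38 (rank 5) and Rpl13a at 0.40 (rank 7). Of the 11 named genes that are not members, 6 were called for MI in the wild type, so this mean also reflects their movement. Over the knockout arrays alone it was smaller for G6pd2 (0.259) than for Nono (0.266).

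By this measure of likeness over 12 arrays, the genes most like Nono were G6pd2 (ratio SD 0.15) and Hsp90ab1 (0.16), and those most like Tbp were G6pd2 (0.10) and Ldhal6b (0.12). Hprt was most like Nono (0.19) and Tuba1b, an alpha-tubulin (0.26). Rpl13a was most like Gusb, a lysosomal enzyme (0.22), and Ppia (0.26).

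Ratios that contain Tbp differed between genotypes in what MI did to them. Tbp over Nono was -2.15, -2.13 and -2.17 in wild-type sham and -2.24, -2.65 and -2.44 in wild-type MI. It was -2.55, -2.40 and -2.38 in knockout sham and -2.09, -2.12 and -2.18 in knockout MI. No array of MI overlapped sham in either genotype, with MI lower by 0.29 in the wild type and higher by 0.32 in the knockout. Within a genotype the exact two-sided permutation test gave p = 0.1, which is as low as 3 arrays against 3 can go. The difference of the MI effects was 0.61, with an exact two-sided permutation p = 0.005, as low as the 400 arrangements of labels within genotypes can go, and 0.03 after Benjamini-Hochberg adjustment over the 6 pairs. These arrangements exchange MI and sham within each genotype. The p therefore refers to no MI effect on the ratio in either genotype, and not to equal MI effects. Without wild-type sham replicate 1 the difference was 0.61, with an exact permutation p = 0.06 after the same adjustment. This adjusted p stayed under 0.05 without any other array.

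Tbp over Hprt differed after MI by -0.49 in the wild type, with overlap, and by 0.49 in the knockout, without. The difference of these effects was 0.98 (exact permutation p = 0.01, adjusted p = 0.03 over the 6 pairs). For Rpl13a over Tbp the values were 0.81 and -0.35, and their difference was -1.16 (exact permutation p = 0.02, adjusted p = 0.04). The 3 pairs without Tbp gave differences of -0.55 for Rpl13a over Nono, -0.18 for Rpl13a over Hprt and 0.37 for Nono over Hprt, with exact permutation p from 0.11 to 0.67, adjusted p 0.165 to 0.67. Without wild-type sham replicate 1, knockout sham replicate 2 or knockout MI replicate 1, Tbp over Hprt gave 0.88, 0.94 and 0.86. The exact permutation p, adjusted over the 6 pairs, was then 0.06, 0.05 and 0.06. For Rpl13a over Tbp this adjusted p was under 0.05 in 3 of 12 omissions, with differences of -1.37 to -0.90. These 6 ratios share 4 genes and are not independent of each other. Under quantile normalization, which is not a constant per array, the adjusted exact permutation p was 0.14 for Rpl13a over Tbp and 0.105 for Tbp over Hprt. In the authors' values Tbp over Nono gave 0.38 (adjusted exact permutation p = 0.06).

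With the 75th percentile, the MI differences of Tbp and Nono had opposite signs in both genotypes, and the mean of both on an array was steadier than either. This pair was chosen after the values were seen. Its SD over the 12 arrays was 0.07, with differences after MI of -0.03 in the wild type and 0.04 in the knockout. The mean of all 4 members had an SD of 0.13 and differences of 0.22 and -0.09. In the authors' values the SD was 0.07 for Nono alone and also for its mean with Tbp, and without scaling between arrays it was 0.21 for Nono and 0.24 for the mean.

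The choice of reference set the size of a measured MI effect. Actb, a cytoskeletal actin, was higher after MI in the wild type by 1.23 relative to the 75th percentile. Its log2 ratio was higher by 0.60 (1.51-fold) over Rpl13a, 0.92 (1.89-fold) over Hprt, 1.11 (2.16-fold) over Nono and 1.41 (2.65-fold) over Tbp. All wild-type MI arrays lay above all wild-type sham arrays for Actb under each of these 4 references. In the knockout the ratio differed by 0.004 over Rpl13a, 0.14 over Hprt, -0.03 over Nono and -0.34 over Tbp, with overlap in each.

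Gapdh, a glycolytic enzyme, was lower after MI in the wild type by 0.47 relative to the 75th percentile. Its log2 ratio differed by -1.10 over Rpl13a, -0.78 over Hprt, -0.58 over Nono and -0.29 over Tbp, in each without overlap. In the knockout the difference was -0.13 over Rpl13a, 0.01 over Hprt, -0.16 over Nono and -0.48 over Tbp, and the groups separated over Tbp only of these 4. Of these 4 references, Tbp gave Gapdh the smallest drop in the wild type and the largest in the knockout. Gapdh over Tbp depended on the scaling, with -0.61 in the wild type and -0.13 in the knockout under quantile normalization.

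**Figure D4:**
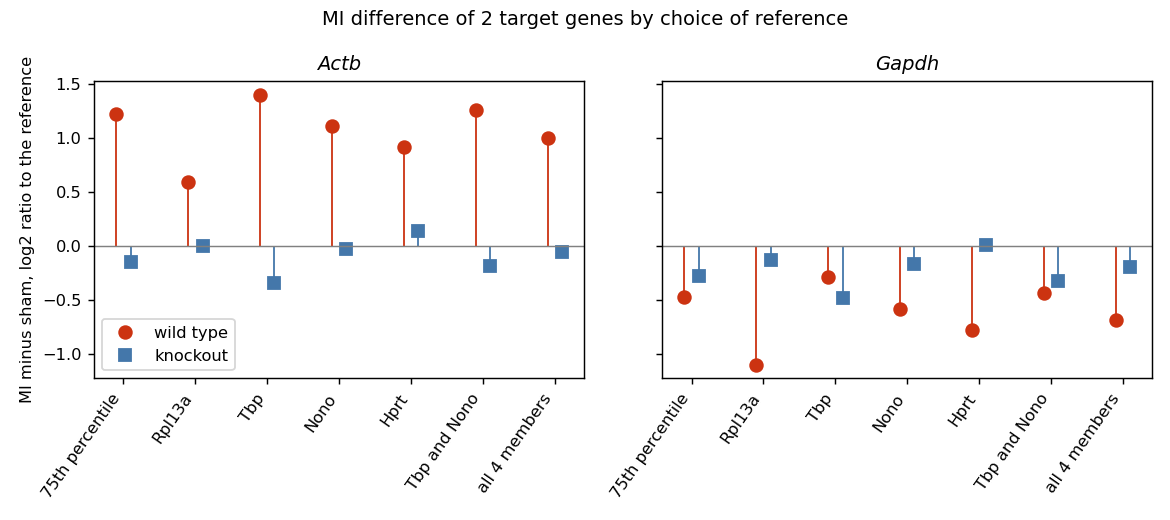
MI minus sham (vertical axis, log2 ratio of the target to the reference, group means of 3 arrays) for Actb and Gapdh under 7 references (horizontal axis), in the wild type (circles) and the knockout (squares). For Actb in the wild type the value runs from 0.60 over Rpl13a to 1.41 over Tbp, and for Gapdh from -1.10 over Rpl13a to -0.29 over Tbp.

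Over all 11 other named genes, the number whose ratio was higher after MI in the wild type was 5 over Rpl13a, Nono or Hprt and 10 over Tbp, compared with 6 relative to the 75th percentile. In the knockout it was 9 over Rpl13a, 7 over Nono, 11 over Hprt and 1 over Tbp, compared with 5. The median ratio over these genes shifted after MI by -0.61 over Rpl13a, -0.29 over Hprt, -0.10 over Nono and 0.20 over Tbp in the wild type. With the mean of Tbp and Nono as reference the median shift was 0.05 in the wild type and -0.06 in the knockout.

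The same choice was carried to all 52300 probes by scaling each array to a member in place of its 75th percentile, an alternative added after the data were seen. For MI in the wild type, limma called 6711 probes higher and 7222 lower with the 75th percentile. Scaling to Rpl13a gave 1067 higher and 25487 lower, and scaling to Hprt 1429 and 6127. Scaling to Nono gave 4259 higher and 7740 lower, and scaling to Tbp 9567 and 2630. With the mean of Tbp and Nono the counts were 6308 and 4863. Scaling to a gene subtracts that gene's own difference from every probe, so the median difference over all probes became -0.68 with Rpl13a, -0.36 with Hprt, -0.16 with Nono, 0.13 with Tbp and -0.01 with the mean of Tbp and Nono.

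In the knockout, scaling to Tbp called 5 probes higher and 555 lower after MI, while scaling to Rpl13a called 5, Hprt 1 and Nono 0. For the genotypes after sham, scaling to Tbp called 9025 probes higher and 145 lower in the knockout, where the 75th percentile called 14 and 7 and scaling to Nono called 2 and 1. Hprt differed by more than Tbp after MI in the knockout, -0.28 against 0.20, and had the larger SD within groups, 0.23 against 0.08; the part of either in these counts was not tested.

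**Figure D5:**
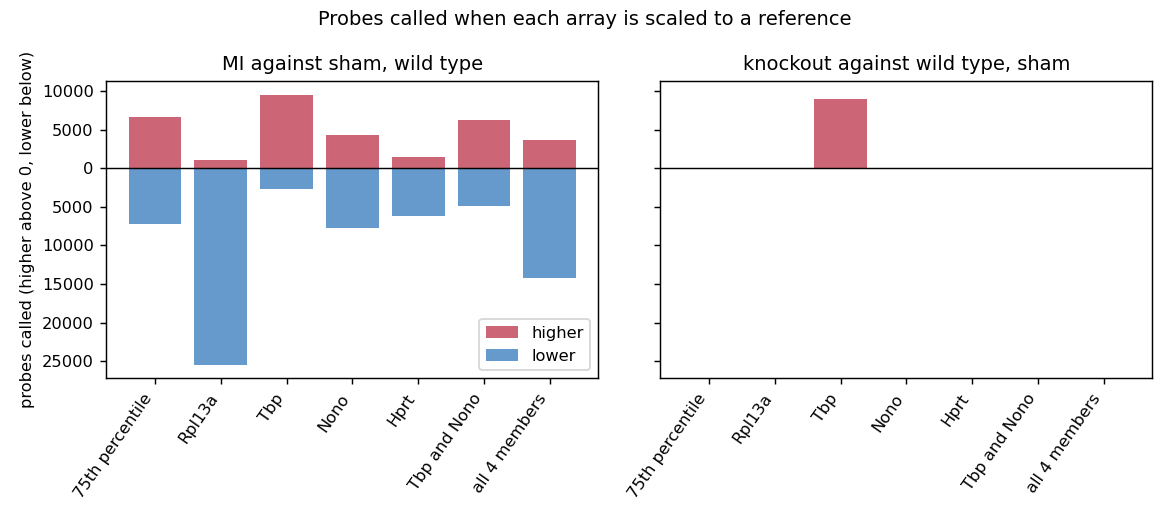
Number of probes called by limma at an adjusted p under 0.05 (vertical axis, higher above 0 and lower below) when each array is scaled to its 75th percentile, to 1 member, to the mean of Tbp and Nono or to the mean of all 4 members (horizontal axis), for MI in the wild type and for the genotypes after sham. In the wild type the split runs from 1067 higher and 25487 lower with Rpl13a to 9567 and 2630 with Tbp, and after sham calls in number appear with Tbp alone (9025 higher).

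Set against the question of which member would serve as a reference in the infarcted ventricle, Nono met the margin in 4 of 4 comparisons. It met 3 with slide as a fixed block or in fits of the groups compared alone. With age as a covariate, or without scaling between arrays, it met 2. Its 95% interval for the difference of the MI effects, -0.54 to 0.08, left the margin. Nono had the smallest mean ratio SD of the 15 named genes. Tbp met the margin in 4 of 4 comparisons as well. It met 3 with slide as a random block, 2 with slide as a fixed block or with age, and 1 without scaling. Its interval for the difference of the MI effects, 0.09 to 0.67, also left the margin. The MI and sham arrays of Tbp did not overlap in either genotype, with opposite signs. Nono overlapped between MI and sham in both genotypes, with a wider wild-type MI group (SD 0.15 against 0.06 for Tbp). Hprt and Rpl13a met it in 0 of 4 comparisons with the 75th percentile, and Rpl13a was called higher after MI in the wild type, a call lost under the settings given above. With 3 arrays a group and slide tied to MI in the wild type, this order describes these arrays. It was not kept under every setting.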

How the data were processed

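Left ventricular RNA of 12 mice was read on 12 one-colour arrays, grouped by genotype and surgery from the labels. Per the labels' protocols, RNA depleted of ribosomal RNA was amplified along whole transcripts from random primers and labelled with Cy3. Signals in the deposited scanner files are linear spot intensity, which was background-subtracted and detrended within each array per the file headers. The submitters' processing notes name Agilent Feature Extraction 11.0.1.1. Quality flags per spot (other units) come, per the file headers, from the same software. The authors' deposited value table is on a log2 scale, as judged by correlation with log2 spot signals (0.9995 at the lowest). Its column for wild-type sham replicate 1 had a median of 6.91. Its scaling between arrays is not stated (not given in the sources used here).

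From the scanner files, the 75th percentile of an array's non-control spots was subtracted, on the log2 scale, from its signals, spots flagged as outliers (35 to 66 per array) were set missing, and the spots of a probe were averaged. Of 62939 spots on an array, 82.6% to 88.1% of the non-control spots were well above background and none of those was saturated. Of 60930 probes, 52305 exceeded background clearly on every array of at least 1 group; without 5 negative controls, 52300 were tested. Group means were fitted by limma 3.58.1 (lmFit, eBayes) in R 4.3.3, in 1 fit of 12 arrays with a mean per group and no covariate, and a gene is called at a Benjamini-Hochberg adjusted p under 0.05. Exact two-sided permutation tests used scipy 1.17.1, and figures matplotlib 3.10.9. The fit was tested on simulated data. The p-values measure the spread between these ventricles.

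The members, lists and tests were chosen with earlier results of these data known. The text names all 4 members in every comparison, the 2 genes most like each, the 3 named genes with the smallest and the 3 with the largest SD, and Actb and Gapdh as targets. Lists of cell type markers and of partners of the members were planned and not run, because the sources used here pair 15 probes with genes. Promoter windows are RefSeq's, GRCm38.p6, and all 4 members matched; probe sequences were not used here. Replicate numbers did not pair the arrays: the deviations of same-numbered arrays correlated at 0.03 on average (-0.34 to 0.34 over 18 pairs). Alternatives were quantile normalization, median centring, a percentile over detected probes, no scaling, normexp (offset 50, on the median spot signal), the authors' values, spot and probe filters, eBayes with trend and robust, array weights, fits restricted to a comparison's groups, terms for replicate number, age or slide, slide 1 alone, and leaving out each array. Scaling to members and the permutation test on the difference of the MI effects in the ratios were added after the data were seen.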

Additional observations from a re-analysis of the deposited data

Results flagged for a closer look

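For 3 ratios between members the MI effects had opposite signs in the genotypes, and their difference had an adjusted exact two-sided permutation p under 0.05. The test exchanges MI and sham within each genotype, so its p refers to no MI effect in either genotype. For Rpl13a over Tbp the effect in the knockout minus that in the wild type was -1.16 on the log2 scale, from 0.81 in the wild type and -0.35 in the knockout (exact permutation p = 0.02, adjusted p = 0.04 over the 6 pairs). For Tbp over Nono it was 0.61, from -0.29 and 0.32 (exact permutation p = 0.005, adjusted p = 0.03). For Tbp over Hprt it was 0.98, from -0.49 and 0.49 (exact permutation p = 0.01, adjusted p = 0.03). All 3 ratios contain Tbp, so they are not separate observations. In limma, the difference of the MI effects of Tbp itself, 0.38 relative to the 75th percentile, had an adjusted p of 0.11. Slide and age differ between these groups, and their part was not tested for the ratios.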

How the results depend on the processing

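The members' differences between groups kept their direction and the counts of members called kept their value under the alternatives run, except as given here; the cause was not tested. The arrays' number, 3 a group, is the main limit. The count of members called for MI in the wild type, 1, became 0 under quantile normalization, without scaling, in the authors' values, with the replicate block and with age as a covariate. For the difference of the MI effects the count of 0 became 1 without scaling (Tbp), 2 with array weights (Tbp and Hprt) and 1 with slide as a fixed block (Rpl13a). For the genotypes after MI it became 1 with the replicate block (Hprt) and 1 with the slide block (Rpl13a), and after sham 1 without scaling and 1 with array weights (Tbp in both). For any difference it became 2 without scaling, 3 with array weights and 1 with the slide block. The count for MI in the knockout stayed at 0. The replicate block changed no other call; 4 of 12 arrays correlated best with an array of their own number, and the numbers are not a pairing. Over all probes the count for MI in the wild type, 13933, was 24219 with array weights, 8978 in the fit of those groups alone, 5494 with the slide block and 5680 with slide as a random block. The other counts over all probes reached 4367 with array weights for MI in the knockout (0), 16963 without scaling for the difference of the MI effects (1956), 16180 with array weights for the genotypes after MI (12618; 339 in the fit of those groups alone), 16871 without scaling after sham (21) and 32541 with array weights for any difference (14233). With age as a covariate limma called 591 for any difference and 0 for each of the difference of the MI effects, the genotypes after MI and after sham, with 9758, 2364 and 3268 probes at an unadjusted p under 0.05.

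Of 4 comparisons, Rpl13a lay inside the margin in 2 with array weights and 1 with the slide block. Tbp lay inside in 1 without scaling, 2 with age and 2 with the slide block. Nono lay inside in 2 without scaling, 2 with age, 3 with the slide block and 3 in fits of the groups compared alone, and Tbp in 3 with slide as a random block. Hprt lay inside in 4 under quantile normalization, 4 in the authors' table, 1 without scaling, 1 with array weights, 1 with the replicate block and 2 with age. The SD without scaling was 0.29 for Tbp and 0.21 for Nono.

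Directions turned as follows. For MI in the wild type, Nono gave -0.027 under quantile normalization, -0.029 in the authors' table, -0.053 without scaling and -0.0071 with array weights, and Hprt gave -0.078 with the slide block. For MI in the knockout, without scaling Rpl13a gave 0.14, Nono 0.17 and Hprt 0.0024, and Rpl13a gave 0.014 with array weights and 0.062 with the slide block and within slide 1. Hprt after MI gave 0.53 between genotypes with age. For the genotypes after sham, without scaling Rpl13a gave -0.16, Nono -0.38 and Hprt -0.24, Nono gave -0.0078 in the authors' values and Hprt -0.088 with the slide block. The difference of the MI effects of Nono gave 0.22 without scaling.

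For the difference of the MI effects in a ratio, Rpl13a over Tbp gave -0.80 under quantile normalization (exact permutation p = 0.14), -1.01 with normexp (p = 0.05) and -0.83 in the authors' values (p = 0.13). Tbp over Nono gave 0.38 in the authors' values (exact permutation p = 0.06), and Tbp over Hprt 0.48 under quantile normalization (p = 0.105) and 0.50 in the authors' values (p = 0.09). Gapdh after MI, quantile-normalized and in the authors' table respectively, gave -0.61 and -0.58 over Tbp in the wild type, and in the knockout -0.13 and -0.13 over Tbp, 0.10 and 0.094 over Nono and 0.17 and 0.17 over Hprt.

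Leaving out each array, the count of members called ran from 0 to 1 for MI in the wild type, for the genotypes after MI and for any difference, the latter 2 reaching 1 without knockout sham replicate 1, and the genotypes after MI also without knockout MI replicate 3. Comparisons inside the margin ran from 0 to 2 for Rpl13a and 3 to 4 for Tbp. MI in the knockout ran from -0.31 to 0.062 for Rpl13a, turning without knockout sham replicate 1. The difference of the MI effects ran from -1.37 to -0.90 for Rpl13a over Tbp, 0.51 to 0.71 for Tbp over Nono, 0.84 to 1.12 for Tbp over Hprt and -0.40 to 0.16 for Rpl13a over Hprt, turning without knockout sham replicate 1. Probes called ran from 4025 to 17751 for MI in the wild type, 0 to 3146 for the difference of the MI effects, 947 to 16437 for the genotypes after MI, 1 to 1045 after sham and 6806 to 15983 for any difference.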
